A study of Mus musculus with 12 samples.

Results

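DNA methylation was followed here across the collagen genes of Pkd1 heterozygous mouse kidney cells. The members were all autosomal protein-coding genes of the GENCODE M1 annotation (mm9) whose symbol is Col, a number, the letter a and a number, and 41 of 21418 genes met this rule. Collagens are the triple-helical proteins of the extracellular matrix. Fibrillar chains build the fibrils of connective tissue and of scars, type IV chains form the network of basement membranes, and other chains decorate fibrils, span membranes or form beaded filaments. In the kidney the tubule rests on a basement membrane of type IV collagen, and fibrillar collagens fill the interstitium when the organ scars.

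The cells were proximal renal tubule epithelial cells from Pkd1 flox/-:TSLargeT mice, used at passage 3, so every group, PBS included, carried the same Pkd1 genotype and the large T transgene. They were kept for 24 h in PBS, in 50 µM Aza (5-aza-2′-deoxycytidine, an inhibitor of DNA methyltransferases), in F-MTAza, which adds tolvaptan (10 µM) and metformin (300 µM) to that dose of Aza, all free in solution, or in NP-MTAza, the same 3 drugs at the same concentrations in micelles, with 3 libraries in each group. No group received metformin and tolvaptan without Aza, and none received empty micelles. Nothing in the labels says that the 3 libraries of a group came from separate cultures, so p-values measure the spread between these libraries only.

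Methylation was read by reduced representation bisulfite sequencing, in which MspI cuts DNA at CCGG and short fragments are sequenced after bisulfite treatment. A methylation level is the percent of reads that were methylated, summed over the CpGs of a promoter (2000 bp upstream to 500 bp downstream of the gene start), a gene body (the rest of the gene), its exons or its introns. A level needed 3 or more CpGs, each with 5 or more reads, and a part was tested where all 10 libraries used had a level. A part was called lower or higher where the adjusted p was under 0.05 and the group means lay at least 10 percentage points (points below) apart. The 10 libraries held between 25336747 and 65817118 reads over their CpGs, with a median of 7 to 9 reads per CpG, and their autosomal level was 66.0% to 71.5% in PBS, 45.1% in Aza replicate 3, between 46.7% and 48.1% in F-MTAza, and between 44.6% and 45.7% in NP-MTAza. The libraries labelled Aza replicates 1 and 2 were left out. Over the collagen promoters the level of Aza replicate 3 followed the PBS mean (Pearson's r = 0.913 over 28 promoters), whereas those of replicates 1 and 2 had an r of -0.0247 over 26 promoters and 0.232 over 21. Aza alone is therefore 1 library without a replicate, and its tests borrow the spread of the other groups. With all 12 libraries in the fit, 0 of the 21 collagen promoters then tested were called in F-MTAza or in NP-MTAza, and all 41 bodies were still called in both.

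The label of proximal tubule was checked at 22 marker genes, of which 9 had a testable promoter. The promoter of Lrp2, which encodes the endocytic receptor megalin, was at 22.8% in PBS. The promoter of Hnf4a, a transcription factor of the proximal tubule, was at 86.8%, close to the endothelial gene Pecam1 at 89.6% and above the fibroblast gene Pdgfrb at 70.7%. The epithelial genes Cdh1 and Krt18 were at 81.7% and 48.3%, the fibroblast gene Pdgfra at 67.2% and the endothelial gene Kdr at 73.7%. Markers of the same cell type could thus lie far apart, and so few promoters do not settle the label.

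Collagen promoters were far more methylated than most. The 27 collagen promoters tested had a median PBS level of 59.5%, against 14.9% for all 11383 promoters tested. A level of 50% or more in PBS was found in 16 of the 27 and in 28.6% of all promoters, and a level under 10% in 2 of the 27 and in 44.0% of all. By role, the 8 fibrillar promoters had a median of 69.9% in PBS, the 6 of the fibril-associated collagens 60.1%, the 3 of the transmembrane collagens 49.9% and the 4 of the type IV network 20.8%. Among the collagens, promoters with more CpGs in the reference were less methylated in PBS (Pearson's r = -0.513 over 28 collagen promoters, against -0.366 over 13199 promoters of all genes). These correlations are across genes, which share their libraries, and are given as descriptions.

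**Figure D1:**
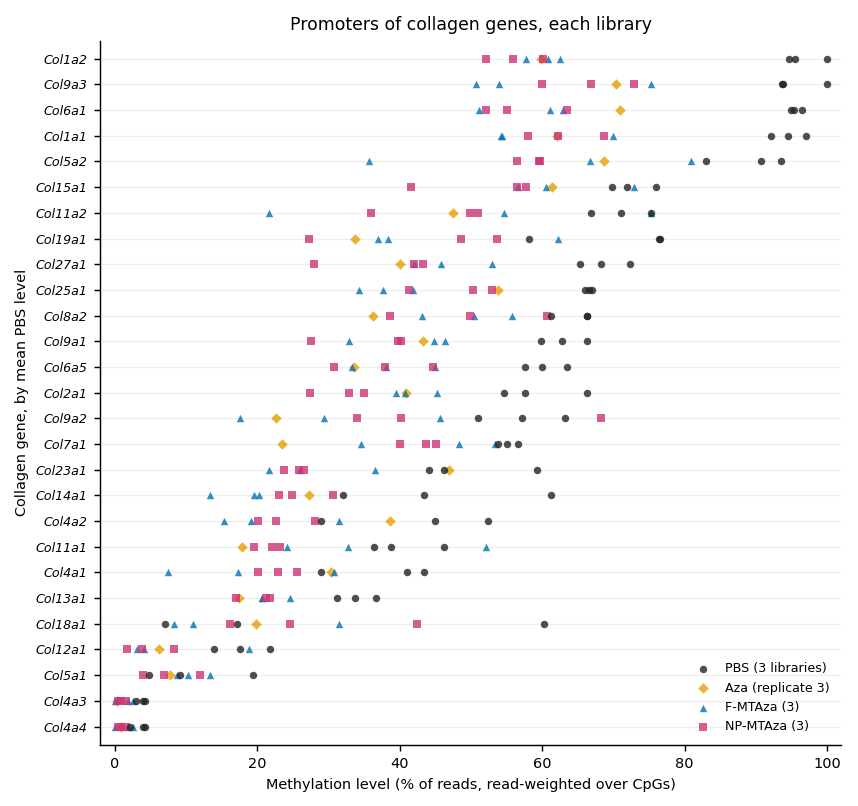
Methylation level in percent of reads (horizontal axis) of the 27 collagen promoters tested (vertical axis, ordered by the PBS mean) in each of the 10 libraries, with 1 symbol per library and colour for the group. The 5 uppermost genes, from Col1a2 to Col5a2, lie at 83.1% or more in every PBS library and at 81.0% or less in every treated library, whereas Col4a3 and Col4a4 lie at 4.31% or less throughout.

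All 27 collagen promoters tested had a lower mean than PBS in F-MTAza, NP-MTAza and Aza replicate 3, and none was called higher. Of all promoters tested, 88.0%, 91.6% and 91.4% had a lower mean. Aza replicates 1 and 2, left out here, stood above PBS at some collagen promoters, as given further below. In F-MTAza 14 of the 27 were called lower, where 22.4% of all promoters tested were, and in NP-MTAza 13 of the 27, where 24.5% of all were. Aza replicate 3 gave 6 of 27, where 11.1% of all were called lower, and 3 of 27 when PBS replicate 1 was left out. Promoters that start high can lose more, so the comparison was repeated among promoters at 50% or more in PBS. There, 10 of 16 collagens were called lower in F-MTAza, where 65.8% of all such promoters were, and 11 of 16 in NP-MTAza, where 73.7% were. At a like starting level the share of collagens called lower thus lay near that of other genes. All 7 drug-treated libraries lay below all 3 PBS libraries at 15 of the 27 promoters, where 30.1% of all promoters did. The count in F-MTAza was 8 of 29 promoters tested when PBS replicate 2 was left out.

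The median difference from PBS over the 27 promoters was -20.6 points in F-MTAza and -19.4 in NP-MTAza, against -4.81 and -5.32 over all promoters tested. Among promoters at 50% or more in PBS the medians were -23.1 and -27.2 points for the collagens and -22.2 and -24.1 for all. Of the 27 collagens, 26 had an NP-MTAza difference between the 5th and the 95th percentile of all promoters in the same 10-point bin of PBS level. Across the collagen promoters the PBS level and the NP-MTAza difference were related with r = -0.878 (n = 28), and across all promoters with r = -0.883 (n = 12724). The PBS level is part of that difference, so this is a description only.

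**Figure D2:**
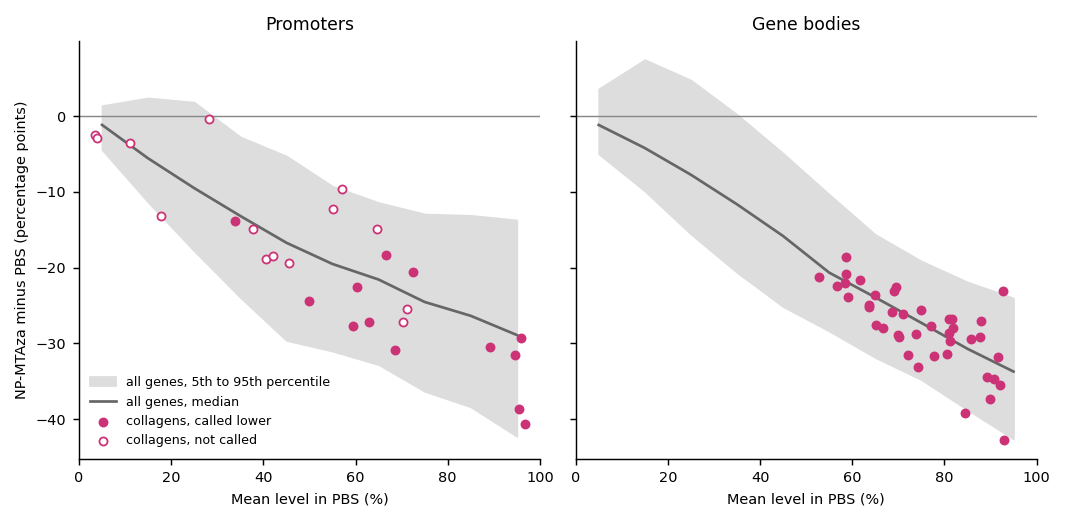
Difference between NP-MTAza and PBS in percentage points (vertical axis) against the mean PBS level in percent (horizontal axis) for promoters (left) and gene bodies (right), with each collagen a circle, filled where called lower. The band runs from the 5th to the 95th percentile of all genes at like PBS level and the line is their median, and 26 of 27 collagen promoters and 38 of 41 collagen bodies lie inside the band.

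The promoters of the fibrillar chains of scar tissue, Col1a1, Col1a2 and Col3a1, were highly methylated in PBS, and those of Col1a1 and Col1a2 were lower in treated cells. Col1a2 (chr6:4454814-4491543, plus strand), the alpha 2 chain of type I collagen, had a promoter level of 95.5%, 100% and 94.7% in PBS, 59.9% in Aza replicate 3, 60.9%, 57.8% and 62.5% in F-MTAza and 60.2%, 52.1% and 55.9% in NP-MTAza. The highest treated library lay 32.2 points below the lowest PBS library. Its promoter fell by 36.3 points (SE 2.15, adjusted p = 0.000921) in F-MTAza and by 40.6 points (SE 2.86, adjusted p = 0.000667) in NP-MTAza. Col1a1 (chr11:94797538-94814356, plus strand), which encodes the alpha 1 chain that pairs with it, stood at 94.6%, 97.0% and 92.1% in PBS, 62.1% in Aza replicate 3, 70.0%, 54.2% and 54.4% in F-MTAza and 58.0%, 68.7% and 62.3% in NP-MTAza. Here too the groups did not overlap, and the promoter fell by 35.02 points (SE 5.42, adjusted p = 0.00124) in F-MTAza and by 31.5 points (SE 3.42, adjusted p = 0.00129) in NP-MTAza. In Aza replicate 3 the Col1a2 promoter fell by 36.8 points (adjusted p = 0.00926) and that of Col1a1 by 32.4 points (adjusted p = 0.0125). The promoter of Col3a1, the type III chain laid down early in scars, was not tested because F-MTAza replicates 1 and 3 had no level there. It stood at 86.6%, 100% and 79.3% in PBS, 40.9% in Aza replicate 3, 81.2% in F-MTAza replicate 2 and 61.7%, 59.3% and 36.4% in NP-MTAza. F-MTAza replicate 2 lay above PBS replicate 3.

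Stretches of the reference sequence show where CpGs of highly methylated promoters lie. The first stretch lies upstream of the Col1a2 start at chr6:4454351-4454547 (plus strand, mm9), at positions -463 to -267 from it, and holds 2 CCGG sites. The second lies at chr11:94795940-94796007 (plus strand), at positions -1598 to -1531 from the Col1a1 start. The third lies at chr10:76190184-76190378 (minus strand), at positions -1465 to -1271 from the start of Col6a1. They are shown because their CpGs, in capitals where at least 7 of the 10 libraries read them, were almost fully methylated in PBS.
Col1a2: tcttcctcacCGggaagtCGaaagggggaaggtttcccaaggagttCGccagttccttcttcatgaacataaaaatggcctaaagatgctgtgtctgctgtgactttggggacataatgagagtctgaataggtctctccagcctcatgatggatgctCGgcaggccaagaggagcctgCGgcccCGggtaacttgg
Col1a1: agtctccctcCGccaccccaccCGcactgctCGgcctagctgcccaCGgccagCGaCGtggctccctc
Col6a1: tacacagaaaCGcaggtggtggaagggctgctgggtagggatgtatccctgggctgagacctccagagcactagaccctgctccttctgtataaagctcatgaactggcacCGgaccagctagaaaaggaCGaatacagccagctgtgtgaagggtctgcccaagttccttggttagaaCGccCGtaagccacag
The 6 CpGs of the Col1a2 stretch were methylated in 97.6%, 100% and 94.1% of reads in the PBS libraries, 70.9% in Aza replicate 3, 60.9%, 52.9% and 63.6% in F-MTAza and 54.1%, 56.7% and 62.3% in NP-MTAza. The 6 of the Col1a1 stretch were at 93.5%, 99.1% and 96.4% in PBS, 59.7% in Aza replicate 3, 80.0%, 83.3% and 76.9% in F-MTAza and 100%, 65.8% and 70.5% in NP-MTAza. The F-MTAza levels of that stretch rest on 56 reads in all, and NP-MTAza replicate 1 overlapped PBS. The 5 CpGs of the Col6a1 stretch were at 100%, 98.0% and 91.8% in PBS, 62.3% in Aza replicate 3, 51.5%, 70.0% and 61.1% in F-MTAza and 39.4%, 57.1% and 68.3% in NP-MTAza. Single CpGs of that stretch ranged from 92.9% to 100% in pooled PBS reads and from 54.4% to 61.4% in pooled NP-MTAza reads, so the loss was spread over all 5 of them.

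**Figure D3:**
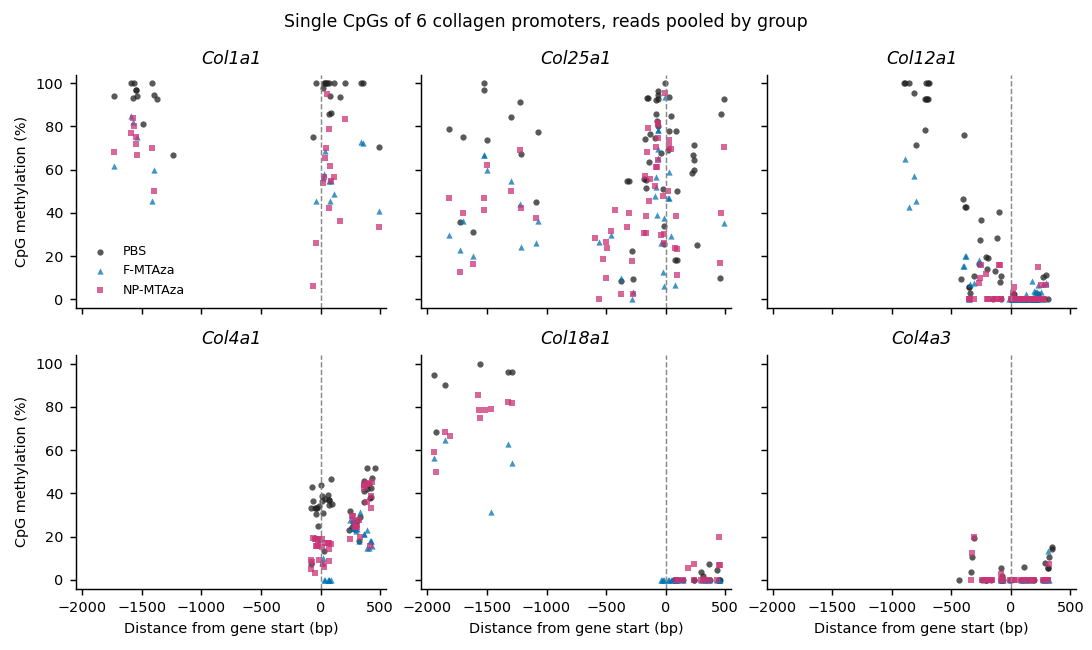
Methylation of single CpGs in percent (vertical axis) against distance from the gene start in bp (horizontal axis) in 6 collagen promoters, with reads pooled within PBS, F-MTAza and NP-MTAza and at least 10 reads per group and CpG. In Col1a1 the PBS points sit high on both sides of the start, in Col18a1 they are high upstream and near 0 around the start, and in Col4a3 they stay low throughout.

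Col6a1 (chr10:76171537-76188913, minus strand), a chain of the beaded filaments of type VI collagen, gave the largest F-MTAza loss of any collagen promoter. It stood at 96.5%, 95.3% and 94.9% in PBS, 71.0% in Aza replicate 3, 51.1%, 61.1% and 63.0% in F-MTAza and 52.2%, 55.1% and 63.4% in NP-MTAza. The promoter fell by 37.1 points (SE 3.72, adjusted p = 0.000801) in F-MTAza and by 38.6 points (SE 3.4, adjusted p = 0.000629) in NP-MTAza, with no overlap between treated and PBS libraries. Its level rests almost wholly on CpGs more than 500 bp upstream. Within 500 bp of the start no library used read more than 1 CpG, so the start region of Col6a1 has no level. Col9a3, a chain of the cartilage collagen type IX, stood at 93.9%, 100% and 93.7% in PBS, 70.4% in Aza replicate 3, 54.0%, 50.8% and 75.3% in F-MTAza and 60.0%, 66.9% and 73.0% in NP-MTAza. It fell by 35.9 points (SE 7.97, adjusted p = 0.00342) in F-MTAza and by 29.3 points (SE 4.28, adjusted p = 0.0053) in NP-MTAza, but its library with the fewest reads held 15 of them on 3 CpGs. Col5a2, a type V chain that joins type I fibrils, stood at 90.8%, 93.5% and 83.1% in PBS, 68.8% in Aza replicate 3, 81.0%, 66.7% and 35.7% in F-MTAza and 59.6%, 56.5% and 59.7% in NP-MTAza. The F-MTAza libraries of Col5a2 had an SD of 23.1 points, and the promoter fell by 28.0 points (SE 13.7, adjusted p = 0.0388) in F-MTAza and by 30.6 points (SE 3.3, adjusted p = 0.0251) in NP-MTAza. These calls held in 7 of 15 alternatives in F-MTAza and in 8 of 15 in NP-MTAza. The F-MTAza call was lost without PBS replicates 1 (adjusted p = 0.0962) or 2 (0.135), without F-MTAza replicates 2 (0.0672) or 3 (-15.3 points, 0.0621), and without any 1 of the NP-MTAza libraries (0.0564 to 0.0581). The NP-MTAza call was lost without PBS replicates 1 (0.0706) or 2 (0.0974) and without any 1 of the NP-MTAza libraries (0.0635 to 0.0721).

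The remaining promoters at 50% or more in PBS belonged to collagens of cartilage, skin, basement membrane zones and cell membranes. Col25a1, a membrane-spanning collagen, stood at 66.0%, 66.6% and 67.0% in PBS, 53.8% in Aza replicate 3, 41.9%, 37.7% and 34.3% in F-MTAza and 50.3%, 53.0% and 41.3% in NP-MTAza. Its promoter fell by 28.6 points (SE 2.23, adjusted p = 0.00259) in F-MTAza and by 18.3 points (SE 3.56, adjusted p = 0.0141) in NP-MTAza, and the PBS libraries lay within 1 point of each other. Col27a1, a fibrillar collagen of cartilage, was at 68.3%, 65.4% and 72.3% in PBS, 40.0% in Aza replicate 3, 52.9%, 42.0% and 45.8% in F-MTAza and 42.0%, 43.3% and 28.0% in NP-MTAza. It fell by 21.8 points (SE 3.78, adjusted p = 0.0166) in F-MTAza and by 30.9 points (SE 5.29, adjusted p = 0.00323) in NP-MTAza. Col2a1, the main fibrillar collagen of cartilage, was at 57.6%, 66.3% and 54.7% in PBS, 41.0% in Aza replicate 3, 39.6%, 45.2% and 40.8% in F-MTAza and 27.5%, 32.9% and 34.9% in NP-MTAza. It fell by 17.7 points (SE 3.9, adjusted p = 0.022) in F-MTAza and by 27.8 points (SE 4.15, adjusted p = 0.00269) in NP-MTAza, again without overlap. Col9a1, another type IX chain, was at 62.7%, 66.3% and 59.9% in PBS, 43.3% in Aza replicate 3, 44.9%, 32.9% and 46.4% in F-MTAza and 39.7%, 40.2% and 27.6% in NP-MTAza. It fell by 21.6 points (SE 4.66, adjusted p = 0.018) and 27.1 points (SE 4.53, adjusted p = 0.00594) in F-MTAza and NP-MTAza. Col6a5, a type VI chain, was at 59.9%, 57.6% and 63.6% in PBS, 33.6% in Aza replicate 3, 33.3%, 38.1% and 45.0% in F-MTAza and 30.8%, 44.7% and 37.9% in NP-MTAza. It fell by 21.6 points (SE 3.79, adjusted p = 0.0137) in F-MTAza and by 22.6 points (SE 4.37, adjusted p = 0.0101) in NP-MTAza. In each of these genes the groups were apart, with all 7 treated libraries under the lowest PBS library.

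Others passed the test in 1 comparison or in none. Col15a1, a collagen of basement membrane zones, had a promoter level of 75.9%, 71.9% and 69.9% in PBS, 61.5% in Aza replicate 3, 56.6%, 72.9% and 60.5% in F-MTAza and 41.7%, 57.8% and 56.5% in NP-MTAza. It fell by 20.6 points (SE 5.47, adjusted p = 0.0278) in NP-MTAza, whereas in F-MTAza the difference was -9.22 points (SE 5.23, adjusted p = 0.265), with F-MTAza replicate 2 inside the PBS range. The NP-MTAza call held in 10 of 17 alternatives, and was lost without PBS replicates 1 (adjusted p = 0.0859) or 2 (0.0653) and without NP-MTAza replicates 1 (0.101) or 3 (0.0519). Col7a1, the anchoring fibril collagen of skin, was at 56.6%, 55.1% and 53.8% in PBS, 23.5% in Aza replicate 3, 34.6%, 53.4% and 48.3% in F-MTAza and 40.0%, 43.8% and 45.1% in NP-MTAza. Its promoter fell by 31.7 points in Aza replicate 3 (adjusted p = 0.0226) and was not called in F-MTAza (-9.77 points, SE 5.68, adjusted p = 0.197) or NP-MTAza (-12.2 points, SE 1.74, adjusted p = 0.122). Col19a1, a fibril-associated collagen, was at 76.4%, 76.6% and 58.2% in PBS, 33.8% in Aza replicate 3, 38.4%, 37.0% and 62.3% in F-MTAza and 27.3%, 53.7% and 48.6% in NP-MTAza. Its differences of -24.5 points (SE 10.2, adjusted p = 0.0753) in F-MTAza and -27.2 points (SE 10.1, adjusted p = 0.0502) in NP-MTAza missed the threshold, and F-MTAza replicate 3 overlapped PBS. Col11a2, a fibrillar collagen of cartilage, was at 71.1%, 75.3% and 66.9% in PBS, 47.5% in Aza replicate 3, 21.6%, 54.7% and 75.3% in F-MTAza and 36.0%, 51.1% and 49.8% in NP-MTAza. F-MTAza replicate 3 reached the highest PBS library, and the differences were -20.6 points (SE 15.8, adjusted p = 0.206) in F-MTAza and -25.5 points (SE 5.4, adjusted p = 0.136) in NP-MTAza. Col9a2, the third type IX chain, was at 63.2%, 57.1% and 51.1% in PBS, 22.7% in Aza replicate 3, 17.6%, 45.7% and 29.4% in F-MTAza and 34.0%, 68.3% and 40.2% in NP-MTAza. NP-MTAza replicate 2 was the highest of all 10 libraries there, and the differences were -26.2 points (SE 8.84, adjusted p = 0.0716) in F-MTAza and -9.62 points (SE 11.1, adjusted p = 0.511) in NP-MTAza. Col8a2, a short-chain collagen of the cornea, was at 66.3%, 61.3% and 66.3% in PBS, 36.2% in Aza replicate 3, 43.2%, 50.4% and 55.8% in F-MTAza and 49.8%, 60.6% and 38.6% in NP-MTAza. Its treated libraries all lay below PBS, yet the differences of -14.8 points (SE 4.01, adjusted p = 0.0989) in F-MTAza and -14.9 points (SE 6.57, adjusted p = 0.0978) in NP-MTAza missed the threshold. Below 50% in PBS, the transmembrane collagens Col13a1 and Col23a1 were called lower in both combinations and Col14a1, a fibril-associated collagen, in F-MTAza. Col5a1, Col11a1 and Col12a1 were called in neither.

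The type IV chains of the kidney basement membrane had low or intermediate promoters in PBS, and each pair shares its start region. Col4a3 (chr1:82583496-82718634, plus strand) and Col4a4 (chr1:82447298-82583424, minus strand) encode chains of the mature glomerular basement membrane that are altered in Alport syndrome. Their starts lie 72 bp apart and their promoters overlap by 1073 bp, so their levels rest on nearly the same reads. The Col4a4 promoter stood at 4.01%, 4.31% and 2.17% in PBS, 0.952% in Aza replicate 3, 1.94%, 2.52% and 0% in F-MTAza and 0.488%, 1.54% and 0.837% in NP-MTAza. That of Col4a3 stood at 4.01%, 4.31% and 3.08% in PBS, 0.328% in Aza replicate 3, 1.94%, 2.52% and 0% in F-MTAza and 0.488%, 1.54% and 0.837% in NP-MTAza. No library exceeded 4.31%, so a loss of 10 points could not occur and neither promoter could be called lower. The 71 bases between both starts, chr1:82583425-82583495, are given on the plus strand with the 2 CpGs read in at least 7 libraries in capitals.
Col4a3: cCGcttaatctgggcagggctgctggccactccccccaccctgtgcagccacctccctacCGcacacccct
No methylated read was found at these 2 CpGs in any library, over 113 reads in PBS, 31 in Aza replicate 3, 24 in F-MTAza and 79 in NP-MTAza. A count of 0 in 79 reads allows a level of up to 3.8%, and 0 in 24 reads up to 12.5%, counting error only.

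Col4a1 (chr8:11198423-11312826, minus strand) and Col4a2 (chr8:11312805-11449287, plus strand) encode the chains found in nearly every basement membrane. Their starts lie 21 bp apart within overlapping genes and their promoters overlap by 980 bp, so their values rest largely on the same reads. The Col4a1 promoter stood at 43.5%, 41.1% and 29.0% in PBS, 30.4% in Aza replicate 3, 7.55%, 30.9% and 17.4% in F-MTAza and 23.0%, 25.6% and 20.2% in NP-MTAza. The lowest PBS library, replicate 3, lay below Aza replicate 3 and F-MTAza replicate 2, so the groups overlapped. The differences were -19.3 points (SE 8.11, adjusted p = 0.0518) in F-MTAza and -14.9 points (SE 4.74, adjusted p = 0.15) in NP-MTAza. The 7 treated libraries against 3 PBS libraries gave p = 0.0333 in a two-sided exact permutation test, which cannot go below 0.00833 in this design. That p pools all treatments and is not adjusted for the many collagen parts tested in this way, of which only this one is given. The Col4a2 promoter stood at 45.0%, 52.5% and 29.0% in PBS, 38.6% in Aza replicate 3, 19.2%, 31.6% and 15.4% in F-MTAza and 22.6%, 28.1% and 20.2% in NP-MTAza. It fell by 20.1 points (SE 8.47, adjusted p = 0.0491) in F-MTAza, and in NP-MTAza the difference was -18.5 points (SE 7.31, adjusted p = 0.0699). The F-MTAza call held in 6 of 18 alternatives. It was lost without PBS replicates 1 (adjusted p = 0.121) or 2 (0.161), without F-MTAza replicates 1 (0.121) or 3 (0.135), and without any 1 of the NP-MTAza libraries (0.065 to 0.0689). A stretch of 134 bases at chr8:11312380-11312513 (plus strand), at positions -425 to -292 from the Col4a2 start and inside the transcribed part of Col4a1, holds 12 CpGs read in at least 7 libraries, in capitals, and is shown for its intermediate and uneven level.
Col4a2: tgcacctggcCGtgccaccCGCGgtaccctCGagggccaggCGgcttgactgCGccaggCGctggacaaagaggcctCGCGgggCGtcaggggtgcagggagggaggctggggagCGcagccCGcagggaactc
It was methylated in 71.5%, 47.8% and 28.3% of reads in PBS, 18.9% in Aza replicate 3, 18.5%, 28.6% and 11.9% in F-MTAza and 44.6%, 52.0% and 22.7% in NP-MTAza. PBS replicate 1 was the highest and NP-MTAza replicates 1 and 2 lay within the PBS range, so the difference between the combinations and PBS did not exceed the spread between libraries in NP-MTAza.

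Col18a1 (chr10:76514923-76629293, minus strand), a collagen of the tubular basement membrane whose C-terminal part is released as endostatin, had the largest spread between PBS libraries of any collagen promoter tested (SD 28.2 points). It stood at 17.1%, 60.2% and 7.12% in PBS, 19.9% in Aza replicate 3, 10.99%, 8.3% and 31.5% in F-MTAza and 16.1%, 42.4% and 24.7% in NP-MTAza. No difference from PBS was called, with -11.2 points (SE 17.9, adjusted p = 0.577) in F-MTAza and -0.404 points (SE 18.0, adjusted p = 0.933) in NP-MTAza. The promoter held 2 zones of opposite level. Within 500 bp of the start the level was 0%, 5.71% and 0.625% in PBS and at most 1.96% in every treated library used. Further upstream it was 96.9% and 98.0% in the PBS libraries 1 and 2, 69.1% in Aza replicate 3, 43.5% and 60.3% in F-MTAza replicates 2 and 3 and 58.1%, 83.3% and 66.7% in NP-MTAza. The level of the whole promoter averages both zones by their reads, and PBS replicate 3, the lowest PBS library, had fewer than 3 CpGs upstream. A stretch of the upstream zone at chr10:76631138-76631248 (minus strand), at positions -1955 to -1845 from the start, is shown with the 3 CpGs read in at least 7 libraries in capitals and 1 CCGG site.
Col18a1: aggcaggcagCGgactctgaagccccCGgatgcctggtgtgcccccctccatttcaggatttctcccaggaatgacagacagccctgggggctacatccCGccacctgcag
In this stretch the pooled level was 87.0% over 69 PBS reads, 69.2% over 26 reads of Aza replicate 3, 65.8% over 38 F-MTAza reads and 57.5% over 106 NP-MTAza reads. By library it was 96.3%, 100% and 74.2% in PBS, 52.9% and 76.2% in F-MTAza replicates 2 and 3 and 55.6%, 63.6% and 54.5% in NP-MTAza. F-MTAza replicate 3 lay above PBS replicate 3, so these groups overlapped.

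Every collagen gene body lost methylation after treatment. All 41 collagen bodies were tested and all 41 were called lower in each of F-MTAza, NP-MTAza and Aza replicate 3, where 84.6%, 87.1% and 80.3% of all 15033 bodies tested were. All 41 collagen bodies were at 50% or more in PBS, and among all bodies at that level 93.5% were called lower in F-MTAza and 95.8% in NP-MTAza. In all 41 genes the 7 treated libraries lay below all 3 PBS libraries, where 81.2% of all bodies did. None was called higher. The median PBS level was 74.2% (range 52.8% to 93.0%), against 77.7% for all bodies. The median difference was -27.8 points in both combinations for the collagens, against -25.9 in F-MTAza and -27.4 in NP-MTAza for all bodies. Collagen bodies kept a median of 64.4% of their PBS level in F-MTAza (range 49.2% to 77.8%) and 62.3% in NP-MTAza (53.5% to 75.1%), and bodies of all genes at 50% or more in PBS kept 65.7% and 63.7%.

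**Figure D4:**
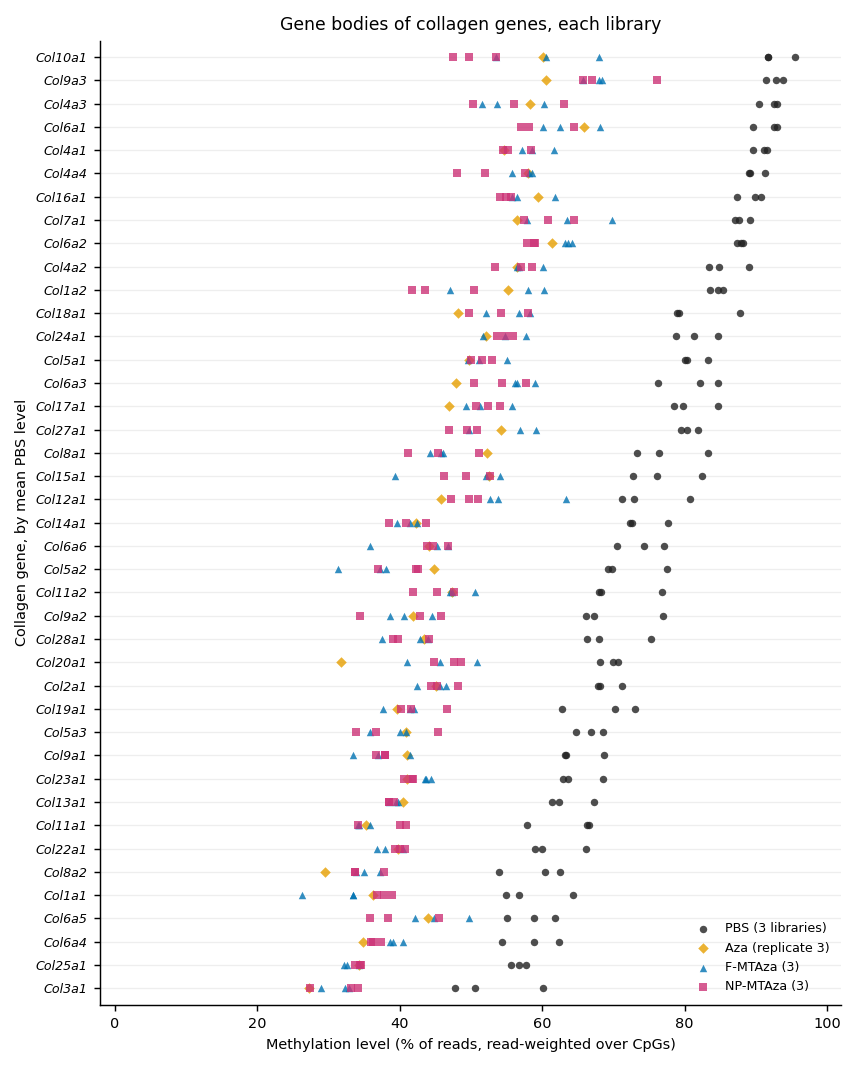
Methylation level in percent of reads (horizontal axis) of the 41 collagen gene bodies (vertical axis, ordered by the PBS mean) in each of the 10 libraries. In every gene the 3 PBS libraries lie to the right of the 7 treated libraries, from Col10a1, with 93.0% in PBS on average, to Col3a1, with 52.8%.

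The type IV bodies, unlike their promoters, were among the most methylated of the family, from 85.8% in Col4a2 to 92.0% in Col4a3 as PBS means. The Col4a3 body stood at 90.5%, 93.0% and 92.5% in PBS, 58.3% in Aza replicate 3, 60.3%, 51.6% and 53.6% in F-MTAza and 63.1%, 56.0% and 50.3% in NP-MTAza. It fell by 36.9 points (SE 2.74, adjusted p = 1.78e-05) in F-MTAza and by 35.5 points (SE 3.77, adjusted p = 1.69e-05) in NP-MTAza, the former being the largest F-MTAza loss of any collagen body. The Col4a4 body stood at 89.2%, 91.3% and 89.1% in PBS, 58.1% in Aza replicate 3, 58.6%, 58.2% and 55.8% in F-MTAza and 52.0%, 57.6% and 48.1% in NP-MTAza. It fell by 32.3 points (SE 1.15, adjusted p = 1.36e-05) in F-MTAza and by 37.3 points (SE 2.85, adjusted p = 8.26e-06) in NP-MTAza. The Col4a1 body, at 91.1%, 91.5% and 89.6% in PBS, 54.7% in Aza replicate 3, 58.6%, 57.2% and 61.7% in F-MTAza and 55.2%, 58.4% and 54.5% in NP-MTAza, fell by 31.6 points (SE 1.43, adjusted p = 1.11e-05) in F-MTAza and by 34.7 points (SE 1.32, adjusted p = 7.4e-06) in NP-MTAza. The Col4a2 body, at 84.8%, 89.1% and 83.5% in PBS, 56.4% in Aza replicate 3, 56.5%, 60.2% and 56.8% in F-MTAza and 58.6%, 57.1% and 53.3% in NP-MTAza, had the smallest loss of the 4. Col4a3 and Col4a4 joined a promoter with almost no methylation to a body near 90% in PBS. The loss after treatment was called in the body, whereas the promoter stood too low in PBS for a call.

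Col10a1, the short-chain collagen of growth plate cartilage, had the most methylated body in PBS, at 91.7%, 95.5% and 91.7% in PBS, 60.1% in Aza replicate 3, 53.5%, 60.6% and 68.0% in F-MTAza and 53.5%, 49.7% and 47.6% in NP-MTAza. It fell by 32.2 points (SE 4.38, adjusted p = 3.5e-05) in F-MTAza and by 42.7 points (SE 2.15, adjusted p = 1.14e-05) in NP-MTAza, and the latter was the largest loss of any collagen body. In this gene the body is short, and the library with the fewest reads held 89 over 11 CpGs. The type I genes differed from each other in their bodies. Col1a2 had a body level of 84.7%, 85.3% and 83.5% in PBS, 55.3% in Aza replicate 3, 58.1%, 47.0% and 60.2% in F-MTAza and 43.6%, 50.5% and 41.7% in NP-MTAza, which fell by 29.4 points (SE 4.13, adjusted p = 8.36e-05) in F-MTAza and by 39.3 points (SE 2.71, adjusted p = 1.97e-05) in NP-MTAza. Col1a1, with a promoter as methylated as that of Col1a2, had a body level of 56.7%, 64.3% and 54.9% in PBS, 36.3% in Aza replicate 3, 33.5%, 33.5% and 26.3% in F-MTAza and 37.8%, 39.0% and 36.8% in NP-MTAza. That body fell by 27.5 points (SE 3.75, adjusted p = 9.59e-05) in F-MTAza and by 20.8 points (SE 2.96, adjusted p = 0.000509) in NP-MTAza. Col3a1 had the lowest body of the family in PBS, at 50.6%, 60.2% and 47.8% in PBS, 27.3% in Aza replicate 3, 32.9%, 29.0% and 32.3% in F-MTAza and 34.1%, 33.2% and 27.5% in NP-MTAza. It fell by 21.5 points (SE 3.94, adjusted p = 0.000675) in F-MTAza and by 21.2 points (SE 4.29, adjusted p = 0.000677) in NP-MTAza, with 13 to 30 CpGs read per library.

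Other bodies with large losses were those of Col5a2, Col14a1, Col8a1 and Col16a1. The Col5a2 body, at 69.3%, 77.5% and 69.8% in PBS, 44.8% in Aza replicate 3, 37.2%, 31.3% and 38.1% in F-MTAza and 42.5%, 42.2% and 37.0% in NP-MTAza, fell by 36.7 points (SE 3.4, adjusted p = 2.52e-05) in F-MTAza, which left 49.2% of its PBS level, the smallest share kept by any collagen. That of Col14a1 stood at 77.7%, 72.6% and 72.3% in PBS, 42.3% in Aza replicate 3, 39.6%, 42.5% and 41.5% in F-MTAza and 40.9%, 38.5% and 43.7% in NP-MTAza. It fell by 33.1 points (SE 1.95, adjusted p = 1.62e-05) in F-MTAza and by 33.2 points (SE 2.31, adjusted p = 1.3e-05) in NP-MTAza. The body of Col8a1, a short-chain collagen, was at 83.3%, 73.3% and 76.5% in PBS, 52.3% in Aza replicate 3, 46.1%, 44.3% and 45.8% in F-MTAza and 51.1%, 41.2% and 45.5% in NP-MTAza and fell by 32.3 points (SE 3.0, adjusted p = 5.57e-05) in F-MTAza. Col16a1, a fibril-associated collagen, was at 87.3%, 90.8% and 89.96% in PBS, 59.5% in Aza replicate 3, 56.5%, 55.8% and 61.8% in F-MTAza and 55.6%, 55.0% and 54.1% in NP-MTAza and fell by 34.5 points (SE 1.12, adjusted p = 8.04e-06) in NP-MTAza. None of these treated libraries reached the lowest PBS library. Averaged over both combinations, the smallest losses were those of Col6a5, Col6a4, Col3a1 and Col12a1, although in NP-MTAza alone the Col1a1 body lost less than the last 3 of these. The Col6a5 body stood at 61.8%, 58.9% and 55.1% in PBS, 44.0% in Aza replicate 3, 49.8%, 42.1% and 44.8% in F-MTAza and 35.9%, 38.4% and 45.6% in NP-MTAza. It fell by 13.0 points (SE 2.96, adjusted p = 0.0089) in F-MTAza and by 18.6 points (SE 3.48, adjusted p = 0.00116) in NP-MTAza, and F-MTAza replicate 1 lay 5.31 points below the lowest PBS library. Col6a4, its neighbour on chromosome 9 and also a type VI chain, was at 58.9%, 62.4% and 54.4% in PBS, 34.8% in Aza replicate 3, 40.4%, 39.1% and 38.7% in F-MTAza and 36.2%, 37.3% and 35.9% in NP-MTAza and fell by 19.1 points (SE 2.4, adjusted p = 0.000244) in F-MTAza and by 22.0 points (SE 2.38, adjusted p = 9.66e-05) in NP-MTAza. The Col12a1 body, of a fibril-associated collagen, was at 72.9%, 71.2% and 80.8% in PBS, 45.8% in Aza replicate 3, 63.3%, 52.7% and 53.8% in F-MTAza and 49.8%, 47.3% and 50.9% in NP-MTAza and fell by 18.4 points (SE 4.5, adjusted p = 0.00184) in F-MTAza and by 25.6 points (SE 3.15, adjusted p = 0.000265) in NP-MTAza.

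The body and the surrounding DNA were compared over 50 kb on each side, leaving out 2 kb next to the gene. Among the 39 collagens with enough CpGs the PBS levels of body and flank were related with r = 0.589, and among 15519 genes of all kinds with r = 0.105, as descriptions across genes. Col8a2 had the body furthest below its flank, at 59.0% against 84.3%. Col9a3 had the body furthest above it, at 92.7% against 62.8%.

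Exons and introns of the collagens could be compared in 38 genes. In PBS the exons were higher in 28 of the 38, where 68.97% of 8034 genes of all kinds had higher exons, and higher in all 3 PBS libraries in 22 of the 38, where 53.6% of all did. The median difference was 8.68 points in the collagens and 5.74 in all genes. After NP-MTAza it was 6.33 in the collagens and 5.34 in all genes, and after F-MTAza 6.38 and 5.82. Genes of fibrillar collagens are built of many short exons that encode Gly-X-Y repeats. Of the 10 fibrillar genes compared, 7 had higher exons and 3, Col1a2, Col5a1 and Col11a2, had lower ones. Col6a5 had the largest difference. Its exons stood at 82.2%, 91.9% and 93.7% in PBS and its introns at 49.0%, 52.8% and 47.4%. Its exons fell by 39.3 points (SE 4.11, adjusted p = 0.000386) in F-MTAza, whereas the introns were the only collagen introns not called there, at -5.97 points (SE 3.79, adjusted p = 0.18). Col12a1 followed with 92.2% in exons and 67.3% in introns, and Col23a1, a transmembrane collagen, with 89.0% and 64.3%. In the opposite direction, the exons of Col9a1 lay below its introns, at 52.5% and 70.3%, those of Col5a1, a type V chain, at 72.9% and 84.0%, and those of Col11a2 at 66.3% and 75.9%. The Col9a1 exons varied between 39.9% and 70.2% in the PBS libraries, and in PBS replicate 2 they lay above the introns.

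**Figure D5:**
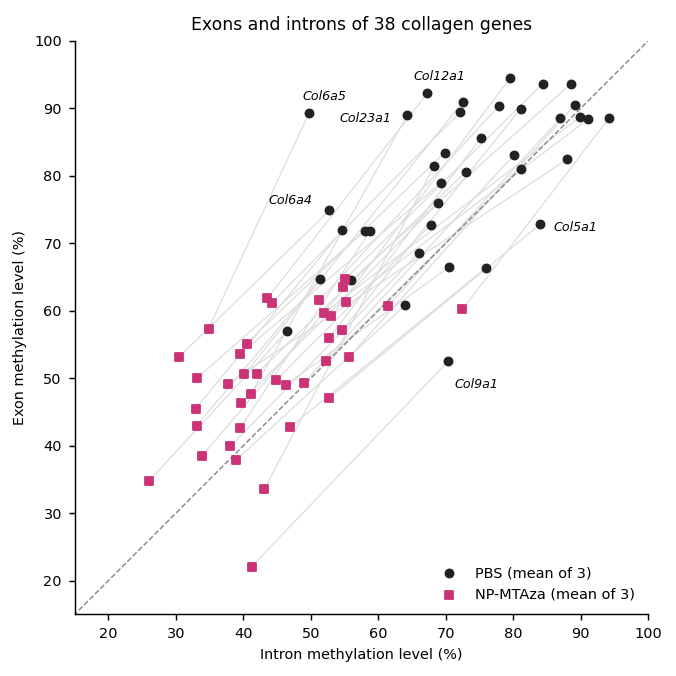
Mean exon level (vertical axis, percent) against mean intron level (horizontal axis, percent) of 38 collagen genes in PBS and in NP-MTAza, with a grey line joining the means of a gene and the diagonal marking equal levels. In PBS 28 of the 38 genes lie above the diagonal, with Col6a5 furthest above it and Col9a1 furthest below.

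In exons, 39 of 39 collagens were called lower in F-MTAza (80.0% of all 9691 genes tested), 38 of 39 in NP-MTAza (82.6%) and 36 of 39 in Aza replicate 3 (72.2%). The exons of Col20a1, a fibril-associated collagen, were the exception in NP-MTAza (-17.4 points, SE 9.58, adjusted p = 0.0681). In introns, 39 of 40 were called lower in F-MTAza (84.1% of 12929), 40 of 40 in NP-MTAza (86.0%) and 39 of 40 in Aza replicate 3 (78.7%). All 7 treated libraries lay below all 3 PBS libraries in the exons of 37 of 39 collagens (76.0% of all genes) and in the introns of 39 of 40 (80.5%). None was called higher in exons or introns.

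Single CpGs gave the same direction. For F-MTAza against PBS, 1338 CpGs of the collagen genes were read at least 5 times in each of the 6 libraries. Of these, 365 (27.3%) were lower by at least 35 points at q under 0.01, where 22.0% of 512987 CpGs were. In NP-MTAza 672 of 2277 (29.5%) were, where 25.9% of 815900 were. None of the collagen CpGs was called higher, where 0.00448% of all CpGs were in F-MTAza and 0.00478% in NP-MTAza. The 3 treated libraries all lay below the 3 PBS libraries at 335 of the 365 and at 604 of the 672. These CpGs were picked for a large drop in the same libraries, so this is a description and no further support. Called CpGs were found in 38 of the 41 genes in F-MTAza and in all 41 in NP-MTAza. Those without one, Col3a1, Col5a2 and Col10a1, had 9, 2 and 3 CpGs tested in F-MTAza. The like share of all genes was not counted, so this says nothing particular to collagens. The test of single CpGs pools the reads of a group and does not use the spread between libraries. With a correction for that spread the counts were 157 (11.7%) and 284 (12.5%), where 46566 (9.08%) of all 512987 CpGs and 89754 of all 815900 were called lower.

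Col13a1, a membrane-spanning collagen, held the most called CpGs in NP-MTAza, with 62 of 219, of which 56 lay in introns. Col18a1 had 52 of 145, Col4a1 47 of 115, Col4a2 44 of 200, Col5a1 36 of 105 and Col27a1 28 of 75. By share, among genes with 20 or more CpGs tested, the range was 9.89% in Col2a1 to 57.1% in Col22a1, a fibril-associated collagen. Within collagen promoters, 41 of 233 CpGs were called lower in NP-MTAza, among them 7 of 9 of Col6a1 and 3 of 3 of Col1a2. The overlapping promoters of Col4a3 and Col4a4 gave 0 of 17 each. Their CpGs stood too low in PBS for a drop of the size a call needs, so no call could occur there. Of the CpGs tested in NP-MTAza, 1089 were at 90% or more in PBS, and their median after treatment was 62.5%. Another 130 were under 10% in PBS, with a median of 1.86% after treatment, and 4 of them were higher by 10 points or more. In F-MTAza the median of 675 CpGs at 90% or more in PBS was 65.6%, and 2 of 68 CpGs under 10% rose by 10 points or more, with no test.

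A coding exon of Col22a1 (chr15:71837320-71837384, minus strand) and an intron of Col13a1 (chr10:61322924-61323122, minus strand) are shown as stretches with several CpGs called lower. Capitals mark the CpGs called lower in NP-MTAza. Each stretch also holds a CpG in small letters, which was not called lower.
Col22a1: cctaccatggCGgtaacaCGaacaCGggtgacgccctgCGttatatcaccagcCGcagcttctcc
Col13a1: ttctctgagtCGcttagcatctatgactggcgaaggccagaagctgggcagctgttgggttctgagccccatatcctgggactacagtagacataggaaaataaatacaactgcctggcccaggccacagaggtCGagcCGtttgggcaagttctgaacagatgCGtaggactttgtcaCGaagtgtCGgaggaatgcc
The 5 CpGs of the Col22a1 exon stood together at 97.7%, 93.3% and 83.3% in PBS, 56.2% in Aza replicate 3, 60.0% and 32.5% in F-MTAza replicates 1 and 2 and 86.5%, 60.0% and 23.2% in NP-MTAza. NP-MTAza replicate 1 lay above the lowest PBS library, so the call there rests on the pooled reads. The 6 CpGs of the Col13a1 intron were at 89.1%, 92.9% and 93.8% in PBS, 60.0% in Aza replicate 3, 35.6% and 50.0% in F-MTAza replicates 2 and 3 and 35.1%, 47.7% and 47.0% in NP-MTAza. In the intron all treated libraries lay below PBS.

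The micelle form and the free combination were compared at the same concentrations and time. No collagen promoter, body, exon or intron part was called in either direction between NP-MTAza and F-MTAza, where 0.0% of all genes were in each of the 4 parts. At an unadjusted p under 0.05 there were 3 of 27 promoters, 2 of 41 bodies, 1 of 39 exon parts and 2 of 40 intron parts, where 541 of 11383 promoters, 827 of 15033 bodies, 683 of 9691 exon parts and 643 of 12929 intron parts of all genes were. The NP-MTAza minus F-MTAza differences of the bodies had a median of -0.26 points (range -10.5 to 6.74) and those of the promoters a median of -1.94 points (range -14.8 to 16.6). The body of Col10a1 had the lowest of these (-10.5 points, SE 4.54), at 50.3% in NP-MTAza and 60.7% in F-MTAza, and that of Col1a1 the highest (6.74 points, SE 2.48), at 37.8% and 31.1%. The promoter of Col11a1, a fibrillar collagen of cartilage, was at 21.6% in NP-MTAza and 36.4% in F-MTAza (SE of the difference 8.34 points), and that of Col25a1 at 48.2% and 38.0% (SE 4.18). At 3 libraries a group, with standard errors of up to 16.4 points for these promoters, the lack of a call does not show that the forms act alike.

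The 14 promoters not tested were those of Col3a1, Col5a3, Col6a2, Col6a3, Col6a4, Col6a6, Col8a1, Col10a1, Col16a1, Col17a1, Col20a1, Col22a1, Col24a1 and Col28a1. They held a median of 1.5 CCGG sites in the reference, against 7 in the 27 tested and 6 in promoters of all genes, and those of Col6a3, Col10a1, Col20a1 and Col28a1 held 0. Where they were read, they covered the whole range. Col16a1 was at 0% and 2.94% in the PBS libraries 1 and 3 and between 0% and 3.17% in the treated ones. Col10a1 was at 89.5% in PBS replicate 3 and between 25.5% and 55.4% in the treated libraries that read it.

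Genes that make, bind or cut collagen were counted beside the chains. Of 60 such genes, 36 promoters were tested, with a median PBS level of 30.1%. Of these, 9 were called lower in F-MTAza and 6 in NP-MTAza, where 22.4% and 24.5% of all promoters were, and none higher. The 20 promoters of biosynthesis and crosslinking genes had a median of 23.7%, with 4 and 3 called lower, and ranged from 1.02% in Plod1, a lysyl hydroxylase, to 90.8% in Adamts2, which removes the N-terminal propeptide of procollagen. The 6 promoters of collagen receptors had a median of 29.2%, with 2 and 1 called lower, and the 9 of basement membrane partners such as laminins 55.3%, with 3 and 2. Of 56 bodies tested, 50 were called lower in F-MTAza and 51 in NP-MTAza, where 84.6% and 87.1% of all bodies were. Their median differences were -26.6 and -27.5 points. The collagen promoters had a median PBS level of 59.5%, against 30.1% over the whole list and 23.7% in its biosynthesis and crosslinking genes, as a description with no test.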

How the data were processed

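Reads were trimmed by the authors (Trim Galore 0.4.4) and aligned with Bismark 0.20.1 and Bowtie2 to the mm9 build. Both strands of a CpG were merged, and only CpGs covered 5 times or more are listed. Whether duplicate reads were removed is not given in the sources used here. For each CpG the deposited tables give the percent methylated beside a fraction of methylated over total reads. All levels here were computed from the read numbers, so deeper CpGs weigh more. Reads of a PCR-amplified library without molecular identifiers are not independent molecules, so limits from a count of 0 cover counting error only. Gene parts come from GENCODE M1, without strand, so overlapping genes share CpGs.

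Gene parts were tested by limma 3.58.1 (R 4.3.3) on the arcsine square root of the level, with 4 groups in 1 fit of 10 libraries and Benjamini-Hochberg adjustment over all genes tested. Single CpGs were tested on the pooled reads of each group by logistic regression with a likelihood ratio test and called at q under 0.01 and at least 35 points. Single levels were compared by a two-sided exact permutation test. Standard errors come from the library levels of both groups. Python 3.11.15, NumPy 2.4.6, pandas 2.3.3, SciPy 1.17.1 and matplotlib 3.10.9 were used, and the tests were tried on simulated data.

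Named genes are the 6 with the largest called differences per comparison, the 4 bodies that changed least, the kidney and scar collagens, promoters at 50% or more in PBS, the 6 with the most called CpGs and the 3 with the largest exon and intron differences in each direction. Members of the family, gene lists and this rule were chosen with earlier results of these data known. The stretches of sequence, the genes named in the comparison of both combinations and those beside the flanks were chosen after their values were seen. The level of 1 marker gene is not reported here.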

Additional observations from a re-analysis of the deposited data

Results flagged for a closer look

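The libraries labelled Aza replicates 1 and 2, used in no comparison above, held methylation at collagen promoters that were low in PBS. At the Col4a4 promoter their levels were 52.1% and 56.4%, against at most 4.31% in PBS, over 48 and 39 reads. At the overlapping Col4a3 promoter they were 43.8% and 58.6%, against at most 4.31% in PBS. At the promoter of Col5a1 they were 31.0% and 24.2%, against at most 19.5% in PBS. At the promoter of Col16a1 they were 79.2% and 54.5%, against at most 2.94% in the 2 PBS libraries that read it. At the promoter of Col12a1 they were 50.0% and 58.9%, against at most 21.9% in PBS, over 314 and 197 reads. Aza replicate 3 stood at 0.952% in Col4a4, 0.328% in Col4a3, 7.72% in Col5a1, 3.17% in Col16a1 and 6.23% in Col12a1, so replicate 3 stood apart from replicates 1 and 2 at these promoters. Their autosomal levels were close, at 45.8%, 46.8% and 45.1%. In replicates 1 and 2, 35321 and 34667 listed CpG positions were repeats of a position already listed, and in the other 10 libraries 0. The part of these repeats in the levels was not tested.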

How the results depend on the processing

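Over 16 counts and medians and 262 alternatives, 236 stayed the same, 24 were weaker and 2 stronger. A count stayed the same within 1.5 times its value, a median within the median SD of the PBS libraries over collagen bodies. These labels hold no direction, so a reversal could not be recorded. Gene bodies were the most stable, with 630 of 632 alternatives for the 17 named bodies keeping their call. The exceptions were Col8a1 in NP-MTAza on shared CpGs (adjusted p = 0.0583) and Col6a5 in NP-MTAza with libraries of 1 barcode set (-13.0 points). The setting of 1 barcode set leaves out NP-MTAza replicates 1 and 2, so NP-MTAza is 1 library there. The sample titles give no barcodes, and whether the barcode sets mark a difference in handling was not tested. Calls of single promoters were less stable. Of 22 calls of named promoters over both combinations, 4 held in every alternative that tested them. They were Col1a2 in both combinations, and Col9a1 and Col27a1 in NP-MTAza. These genes had no promoter level in Aza replicate 2, so the setting with all 12 libraries did not test them. In that setting 0 of 21 promoters were called in F-MTAza or NP-MTAza. Over 377 alternatives of the 22 calls, 307 kept the call and 70 lost it. Beside Col4a2, Col5a2 and Col15a1, given above, leaving out 1 library ended the F-MTAza calls of Col2a1 (PBS replicate 2, adjusted p = 0.0526, F-MTAza replicates 1, 0.0636, or 3, 0.0553), Col9a1 (PBS replicates 1, 0.0501, or 2, 0.0572, F-MTAza replicate 2, 0.061) and Col27a1 (F-MTAza replicate 2, 0.0572), and the NP-MTAza call of Col25a1 (NP-MTAza replicate 3, 0.0626). Of 335 alternatives for promoters not called, 22 gave a call. Promoter counts moved more than those of bodies. Called lower in F-MTAza were 14 of 27 promoters as reported, 1 of 3 at 10 reads per CpG, 9 of 14 on CpGs shared by all libraries, 7 on the logit scale, 9 with libraries of 1 barcode set and 0 of 21 with all 12 libraries. In NP-MTAza 13 of 27 became 1 of 3 at 10 reads, 5 with 1 barcode set and 0 of 21 with all 12 libraries. In Aza replicate 3 the 6 of 27 became 0 of 3 at 10 reads, 3 on shared CpGs, 3 on the logit scale and 3 with 1 barcode set. The fewer promoters tested at 10 reads, on shared CpGs and with all 12 libraries come from the setting itself. So does the loss of NP-MTAza libraries with 1 barcode set. The cause of the other moves was not tested. Exons called lower were 16 of 16 in each combination at 10 reads, and 25 of 27 in NP-MTAza on shared CpGs.

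CpG counts in F-MTAza and NP-MTAza were 73 of 287 and 220 of 781 at 10 reads, 640 and 1168 at 25 points, and 157 and 284 with the test corrected for extra spread. Leaving out each library gave 8 to 15 promoters in F-MTAza (8 of 29 without PBS replicate 2), 9 to 16 in NP-MTAza, 3 to 8 in Aza replicate 3 (3 without PBS replicate 1), 41 bodies in both combinations and 40 to 41 in Aza replicate 3, 37 to 39 exon parts in both, 39 and 40 intron parts, and 371 to 493 and 672 to 940 CpGs. NP-MTAza against F-MTAza gave 0 calls over promoters and bodies throughout.

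Replicate numbers are shared between groups in the labels. Deviations of same-numbered libraries correlated at -0.126 to 0.0195 over bodies and at -0.0748 to 0.0524 over promoters. For libraries with different numbers the ranges were -0.0554 to 0.0983 and -0.0567 to 0.0913. Whether same-numbered libraries were handled together was not tested, and these correlations cannot decide it. With the replicate number as a block, limma called 14 promoters in F-MTAza, 14 in NP-MTAza and 2 in Aza replicate 3, and 0 CpGs of any gene in either combination, where limma without the block called 50 and 133 collagen CpGs and 14616 and 45113 of all CpGs lower. Capping CpGs at 200 reads, an alternative chosen after seeing the data, left every count within 1.5 times. At a median of 7 to 9 reads per CpG, single CpGs in single libraries carry a wide counting error, and the 14 collagen promoters not tested lacked a level in 1 or more of the 10 libraries.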
